A study of Mus musculus with 45 samples.

Results

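The 38 genes described here encode the transporters and enzymes that carry glucose to lactate, the hypoxia-inducible factor (HIF) alpha subunits with the hydroxylases that sense oxygen, and a set of genes known to be induced when oxygen falls. They are a list of gene names from known function, chosen with earlier results of these data known, and all 38 were found among the 54838 genes of the table. RNA-seq had been run on 15 mouse mammary tumour cell lines, each sequenced as 3 technical repeats, which gave 45 libraries. The lines came from MMTV-*PyMT* tumours, in which the mouse mammary tumour virus promoter drives the polyomavirus middle T antigen in mammary epithelium, and every line carries this transgene. The parental lines YEJG and YEJH were taken from primary mammary tumours. From them came 6 fat-pad lines (YEJG-FP and YEJH-FP1 to YEJH-FP5) and 7 lung lines (YEJG-M1, YEJG-M2 and YEJH-M1 to YEJH-M5), and no further treatment was given before RNA was taken from plated cells. The lung lines are labelled whole lung, except YEJH-M3, which is labelled lung metastases.

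The YEJG family therefore had 1 fat-pad line and 2 lung lines, and the YEJH family had 5 of each. Each family rests on 1 parental line, and families and single tumour isolates therefore cannot be told apart. The technical repeats of a line are not independent cultures, so reads were summed per line and p-values measure the spread between lines. The exceptions are the comparison of library name prefixes and the fits with libraries kept apart, which use single libraries. The values are bulk measurements, in which fewer cells that express a gene and less RNA of it per cell cannot be told apart. Between 9723860 and 16943900 reads fell on genes in a library, and levels are given as CPM (reads of a gene scaled to a common library size) after trimmed mean of M-values (TMM) scaling, averaged over the 3 repeats of a line.

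In glycolysis, glucose enters through a transporter, is phosphorylated by a hexokinase and is split and oxidised to pyruvate, which lactate dehydrogenase can turn into lactate for export by a monocarboxylate transporter. When oxygen is present, prolyl hydroxylases of the EGLN family mark HIF alpha subunits for destruction through the von Hippel-Lindau protein. When it falls, the alpha subunits pair with ARNT, bind a short core motif in DNA and raise the transcription of many glycolytic genes and of genes for mitophagy, pH control and collagen modification. Mammary tumours are known for high glucose use, also where oxygen is present.

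The core motif of this response, ACGTG or GCGTG, was looked for on both strands of the 250 bases before each start of a gene, as RefSeq gives it in GRCm38.p6. There were 32851 such windows. A gene with several starts was counted by its window with the most sites, so it had more chances to hold the motif. A window was available for 34 of the 38 genes, and 30 of these (88.2%) held the motif, with overlapping matches counted as 1 site. Of all 27025 genes with a window, 41.5% held it, and of the 10267 genes that were also tested for expression, 61.3% did. At least 2 sites were present in 21 of the 34 genes, or 61.8%, beside 27.3% of the genes tested. The list includes genes chosen because they are known for this response. The shares therefore describe the list and are not a test of it. The windows are printed for the 4 members with the largest called departure between the families in the lung against fat-pad difference (*Egln3*, *Bnip3*, *Pdk1* and *P4ha1*), for *Slc2a1*, the glucose transporter that passed no test, and for *Car12*, which changed most between parental and derived lines. For a gene with several starts, the window of the most upstream start is printed. Capitals mark the motif on either strand, and each line runs 5′ to 3′ on the gene's strand.
*Bnip3* (chr7:138909507-138909756, minus strand): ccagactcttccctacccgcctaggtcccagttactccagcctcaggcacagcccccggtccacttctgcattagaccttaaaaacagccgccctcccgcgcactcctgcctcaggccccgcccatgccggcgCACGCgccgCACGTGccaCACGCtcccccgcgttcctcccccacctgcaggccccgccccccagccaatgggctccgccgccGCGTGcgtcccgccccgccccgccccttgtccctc
*Pdk1* (chr2:71872974-71873223, plus strand): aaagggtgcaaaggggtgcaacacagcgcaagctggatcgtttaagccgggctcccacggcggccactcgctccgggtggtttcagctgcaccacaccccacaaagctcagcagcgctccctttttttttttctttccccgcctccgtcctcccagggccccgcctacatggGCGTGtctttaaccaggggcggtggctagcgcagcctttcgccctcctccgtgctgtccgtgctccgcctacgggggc
*Egln3* (chr12:54203875-54204124, minus strand): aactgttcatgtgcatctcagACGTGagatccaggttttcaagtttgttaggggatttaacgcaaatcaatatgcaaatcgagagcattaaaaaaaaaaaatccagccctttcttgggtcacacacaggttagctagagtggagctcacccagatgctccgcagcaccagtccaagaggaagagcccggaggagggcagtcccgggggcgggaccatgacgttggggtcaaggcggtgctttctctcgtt
*P4ha1* (chr10:59323046-59323295, plus strand): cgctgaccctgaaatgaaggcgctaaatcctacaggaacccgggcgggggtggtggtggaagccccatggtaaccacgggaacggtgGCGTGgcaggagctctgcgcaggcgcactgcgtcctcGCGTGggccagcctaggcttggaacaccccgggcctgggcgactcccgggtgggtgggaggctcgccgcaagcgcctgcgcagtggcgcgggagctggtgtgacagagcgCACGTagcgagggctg
*Slc2a1* (chr4:119108495-119108744, plus strand): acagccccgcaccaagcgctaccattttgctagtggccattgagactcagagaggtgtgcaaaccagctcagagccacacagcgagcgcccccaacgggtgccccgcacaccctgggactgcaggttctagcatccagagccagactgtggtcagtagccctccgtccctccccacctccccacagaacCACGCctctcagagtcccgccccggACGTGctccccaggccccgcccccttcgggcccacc
*Car12* (chr9:66713436-66713685, plus strand): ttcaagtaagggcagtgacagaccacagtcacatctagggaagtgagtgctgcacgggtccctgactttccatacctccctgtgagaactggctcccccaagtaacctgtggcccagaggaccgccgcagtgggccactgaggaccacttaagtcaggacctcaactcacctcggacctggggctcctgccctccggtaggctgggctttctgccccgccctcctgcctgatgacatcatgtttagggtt
Counting back from -1 at the base before the start, the sites began at -117, -108, -99 and -35 in *Bnip3*, where the site at -108 reads the same on both strands. There was a site at -78 in *Pdk1*, at -229 in *Egln3*, at -163, -126 and -16 in *P4ha1* and at -61 and -36 in *Slc2a1*. The window of *Car12* held 0 sites. A match describes these letters only, and *Slc2a1* held more of them than *Pdk1* or *Egln3*.

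Of the 38 genes, 36 reached 1 CPM in at least 1 line and 30 in all 15 lines. Per kilobase of transcript, the highest level was that of *Pkm*, the pyruvate kinase of tumour cells, at 1776 CPM per kb, followed by *Ldha*, which makes lactate from pyruvate, at 1210 and *Aldoa*, the main aldolase, at 730. *Eno1*, *Pgk1*, *Tpi1*, *Gpi1* and *Pgam1* came next, at 631 down to 102 CPM per kb. The glucose transporter *Slc2a1* measured 26.3 CPM per kb and the lactate transporter *Slc16a1* measured 59.8. The partner transporters *Slc2a3* and *Slc16a3* had between 0 and 4 and between 0 and 2 reads per library, so that no change in them could be detected at this depth. The lactate dehydrogenase B subunit gene *Ldhb* stood at 6.69 CPM per kb, far below *Ldha*. Of the HIF alpha subunits, *Hif1a* measured 24.96 CPM per kb and *Epas1* 0.92. *Gapdh* stood at only 41.9 CPM per kb, and a reason for caution with this gene is given with the library names below.

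The question that the lines were made for is how cells from lung metastases compare with cells grown in the fat pad. Across both families, none of the 35 members tested differed between the 7 lung and 6 fat-pad lines, and 1 had an unadjusted p under 0.05 (edgeR quasi-likelihood test, Benjamini-Hochberg adjustment). Of all 15056 genes tested, 0.0% were called in this comparison and 784 had an unadjusted p under 0.05. Origin was not in this model, so the difference between families is part of the spread. With origin as a covariate 3 genes were called, none of them a member. DESeq2's Wald test called 21 genes, none of them a member. The median log2 difference of lung minus fat pad was 0.11 over the members and 0.01 over all genes. *P4ha2*, a collagen prolyl hydroxylase subunit, had the smallest p, with a log2 difference of 1.13 ± 0.40 (SE; adjusted p = 0.909). Its level was 11.4 CPM in YEJG-M1, 10.9 in YEJH-M2, 6.24 in YEJG-M2 and 5.57 in YEJH-M4, and it lay between 1.79 and 3.26 in all other lines. *Car9* (-0.75 ± 0.37), *Slc2a1* (-0.17 ± 0.09) and *Pdk1* (0.85 ± 0.43) had the next smallest p (adjusted p = 0.909 each). Both YEJG lung lines were thus high for *P4ha2*, while the YEJH lung lines held both high and low lines.

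Within the YEJH family, the 5 lung and 5 fat-pad lines also gave 0 called members of 35, beside 0.0467% of all genes called. An unadjusted p under 0.05 was found for 6 members, beside 1131 of all 14990 genes tested. The 4 members with the smallest p were *Pfkp*, a phosphofructokinase subunit (log2 -0.29 ± 0.09, adjusted p = 0.348), *Car9* (-0.77 ± 0.25, adjusted p = 0.385), *Egln3* (-0.97 ± 0.32, adjusted p = 0.416) and *Ddit4*, an inhibitor of mTORC1 (0.36 ± 0.12, adjusted p = 0.461). *Car9*, a carbonic anhydrase at the cell surface, measured 11.5, 12.03, 9.93, 8.64 and 8.96 CPM in YEJH-FP1 to YEJH-FP5 and 3.73, 3.17, 7.90, 6.90 and 8.08 CPM in YEJH-M1 to YEJH-M5. The fat-pad lines thus all lay above the lung lines for *Car9*, by a narrow margin between YEJH-FP4 and YEJH-M5. *Egln3*, a prolyl hydroxylase that is itself a HIF target, measured 1.16, 1.61, 1.14, 1.04 and 0.98 CPM in the fat-pad lines and 0.37, 0.38, 1.31, 0.56 and 0.43 CPM in the lung lines. Here YEJH-M3 lay among the fat-pad lines. With libraries kept apart and the line as a random effect in limma, these 4 members passed the threshold, beside 319 of 12805 genes. That fit uses technical repeats of the same lines, so its spread is partly that of repeats.

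**Figure D1:**
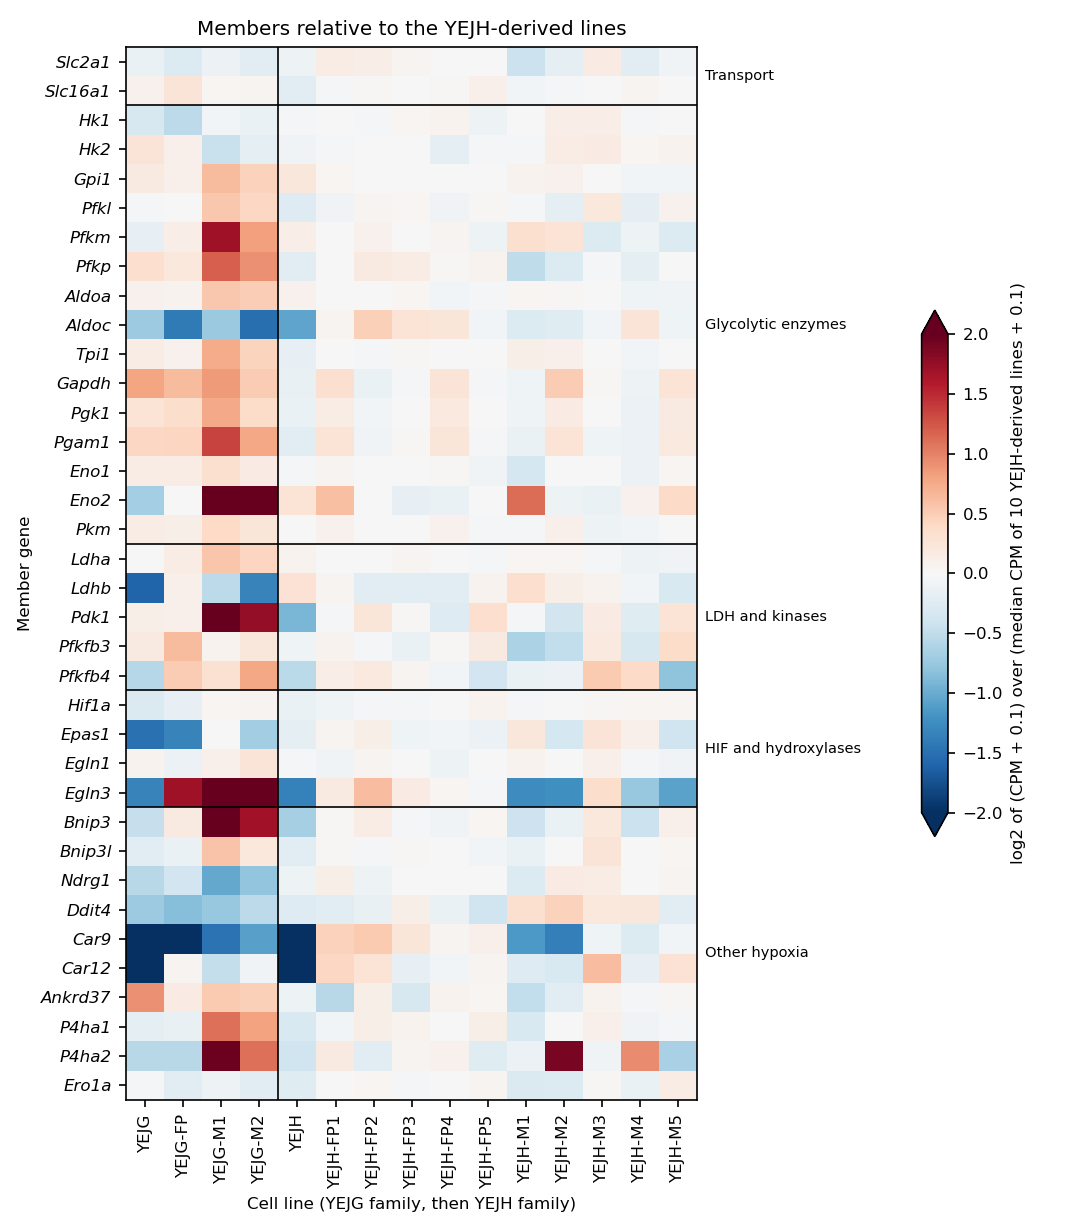
Log2 level of the 36 members that reached 1 CPM in a line (rows, by role), in each of the 15 cell lines (columns), relative to the median of the 10 YEJH-derived lines after adding 0.1 CPM to both; colours saturate at -2 and 2. The columns YEJG-M1 and YEJG-M2 are red over most glycolytic enzymes and over *Pdk1*, *Egln3*, *Bnip3* and *P4ha1*, and the parental columns are blue for *Car9* and *Car12*.

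The 2 YEJG lung lines stood apart from all other lines for many members. Both lay above every one of the 13 other lines for 16 of the 36 members tested, against 15% (2451) of the 16361 genes tested. Of these 16, 11 were glycolytic enzymes (*Gpi1*, *Pfkl*, *Pfkm*, *Pfkp*, *Aldoa*, *Tpi1*, *Pgk1*, *Pgam1*, *Eno1*, *Eno2* and *Pkm*), and the others were *Ldha*, *Pdk1*, *Egln3*, *Bnip3* and *P4ha1*. The margin was narrow for *Eno1*, at 1585 CPM in the lower YEJG lung line and 1575 in the highest other line. For *Pgk1* these values were 1016 and 1010 CPM. *Eno2* passed the count filter with the parental lines included, but not that of the derived lines alone. Both lay below every other line for 1 member, *Ndrg1*, against 14.5% of the genes tested. The 38 members together took 1.69% of the scaled reads in YEJG-M1 and 1.49% in YEJG-M2, and between 1.15% and 1.31% in the other 13 lines. Of the 36 members at 1 CPM or more in some line, 19 had their highest level in YEJG-M1. The same count was not made over all genes, so it cannot be called particular to the members.

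Whether the lung against fat-pad difference itself departed between the families was tested as the product term of site and origin, which is the log2 difference of lung minus fat pad in YEJG less that in YEJH. The term rested on YEJG-FP as the only YEJG fat-pad line, which was taken to vary like the other lines. It was called for 14 of the 35 members tested, 12 higher and 2 lower, and for 15.5% of all genes, 1146 higher and 1184 lower. Its median was 0.40 over the members and -0.03 over all genes. By role, it was higher for 7 and lower for 1 of 14 glycolytic enzymes, higher for 2 and lower for 1 of 5 lactate dehydrogenases and regulatory kinases, higher for 1 of 4 HIF subunits and hydroxylases and for 2 of 10 other hypoxia genes, and called for neither of the 2 transporters.

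*Bnip3*, a mitophagy receptor on the outer mitochondrial membrane, measured 72.9 CPM in YEJG-M1 and 40.8 in YEJG-M2, beside 14.4 in YEJG-FP, 9.15 in parental YEJG and 7.95 in parental YEJH. Across the 10 YEJH-derived lines it ran from 9.35 to 14.6 CPM, with a median of 12.6. The 2 YEJG lung lines did not overlap with any other line, and the product term was 2.11 ± 0.36 (SE, log2; adjusted p = 0.00283). *Pdk1*, a kinase that shuts off pyruvate dehydrogenase and so limits the entry of pyruvate into the citric acid cycle, measured 65.2 CPM in YEJG-M1 and 44.8 in YEJG-M2, beside 14.2 in YEJG-FP, 14.3 in parental YEJG and 6.94 in parental YEJH. The YEJH-derived lines ran from 10.2 to 16.6 CPM (median 13.2). Its product term was 2.08 ± 0.34 (adjusted p = 0.00203), and again only the YEJG lung lines were high.

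*Egln3* measured 14.7 CPM in YEJG-M1 and 9.97 in YEJG-M2, beside 3.5 in YEJG-FP and at most 1.61 in all YEJH-derived lines. Both parental lines were lowest, at 0.34 in YEJG and 0.33 in YEJH. For *Egln3*, unlike *Bnip3* and *Pdk1*, the YEJG fat-pad line was also above every YEJH line, and the product term was 2.79 ± 0.64 (adjusted p = 0.0121). The paralogue *Egln1*, the main oxygen sensor, ran only from 75.7 to 98.5 CPM over all 15 lines, with a product term of 0.28 ± 0.10 (adjusted p = 0.0876). *Hif1a* ran from 144 to 183 CPM, with a term of 0.20 ± 0.06 (adjusted p = 0.0546). *Epas1*, which encodes the second HIF alpha subunit, measured 5.84 CPM in YEJG-M1, 3.56 in YEJG-M2 and 2.26 in YEJG-FP, and its term of 1.08 ± 0.38 did not pass (adjusted p = 0.0790).

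*P4ha1*, a catalytic subunit of the collagen prolyl hydroxylase, measured 167 CPM in YEJG-M1 and 135 in YEJG-M2, beside 70.3 in YEJG-FP, 67.6 in parental YEJG and 62.7 to 84.3 (median 77.8) in the YEJH-derived lines. Its product term, 1.23 ± 0.17, had the smallest p among the members (adjusted p = 0.000809). Among the phosphofructokinase subunits, which commit glucose to glycolysis, *Pfkm* measured 58.8 CPM in YEJG-M1, 31.9 in YEJG-M2 and 19.9 in YEJG-FP, with 14.96 to 22.7 in the YEJH-derived lines. *Pfkp* measured 139, 114 and 69.7 CPM in the same YEJG lines and 42.3 to 68.2 in the YEJH-derived lines. The liver-type subunit *Pfkl*, the most abundant of them, measured 375, 344 and 260 CPM in those lines and 227 to 299 in the YEJH-derived lines. All 3 subunits were highest in YEJG-M1, and their terms were 1.205 ± 0.36, 1.16 ± 0.20 and 0.50 ± 0.16 (adjusted p = 0.0423, 0.00292 and 0.0468).

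The abundant enzymes moved less. *Aldoa* measured 1514 CPM in YEJG-M1 and 1456 in YEJG-M2, beside 1091 in YEJG-FP and 980 to 1072 in the YEJH-derived lines, and its product term was 0.47 ± 0.07 (adjusted p = 0.00176). *Ldha* measured 2662 and 2434 CPM in the YEJG lung lines, 1998 in YEJG-FP and 1689 to 1877 in the YEJH-derived lines (0.39 ± 0.08, adjusted p = 0.00907). *Gpi1*, the glucose phosphate isomerase (0.46 ± 0.08), *Tpi1*, the triose phosphate isomerase (0.48 ± 0.11), and the hexokinase *Hk1* (0.40 ± 0.10) were also called higher. *Hk1* was not high in the YEJG lung lines, at 185 and 176 CPM, but low in YEJG-FP, at 134, with 179 to 212 in the YEJH-derived lines.

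The product term was lower for *Hk2* and *Ldhb*. *Hk2*, the inducible hexokinase, measured 92.6 CPM in YEJG-M1 and 112 in YEJG-M2, beside 136 in YEJG-FP, 152 in parental YEJG and 111 to 142 in the YEJH-derived lines (-0.52 ± 0.13, adjusted p = 0.0154). *Ldhb* measured 7.86 and 4.42 CPM in the YEJG lung lines, 12.1 in YEJG-FP and 9.14 to 14.3 in the YEJH-derived lines (-1.13 ± 0.32, adjusted p = 0.0308). Parental YEJG was lowest for *Ldhb*, at 3.67 CPM. *Slc2a1* measured 113, 105 and 102 CPM in YEJG-M1, YEJG-M2 and YEJG-FP and 91.6 to 138 in the YEJH-derived lines, and its term was 0.32 ± 0.19 (adjusted p = 0.290). *Ero1a*, an oxidase for protein folding, ran from 65.7 to 89.2 CPM over all lines, with a term of 0.18 ± 0.16 (adjusted p = 0.487).

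Among the members whose product term was not called were *Pfkfb3*, *Pfkfb4* and *Ankrd37*. The glycolytic enzymes *Pgam1* (0.67), *Pkm* (0.25), *Pgk1* (0.22) and *Eno1* (0.18) were not called for this term either. Both YEJG lung lines lay above every other line for these enzymes, but a departure between the families in the lung against fat-pad difference was not shown for them. *Eno2*, the neuronal enolase, measured 3.34 CPM in YEJG-M1 and 1.61 in YEJG-M2 and at most 0.43 in all other lines, and it was too low in most lines to be tested for this term. *Pfkfb4*, a regulator of phosphofructokinase through a sugar bisphosphate activator, measured 13.4, 18.4 and 15.3 CPM in YEJG-M1, YEJG-M2 and YEJG-FP and 6.13 to 15.5 in the YEJH-derived lines, so the groups overlapped. *Pfkfb3*, its relative, ran from 2.97 to 7.3 CPM over all lines, with the highest level in YEJG-FP. *Ankrd37*, an ankyrin repeat gene, measured 1.99, 1.91 and 1.52 CPM in the YEJG-derived lines in the same order and 0.88 to 1.48 in the YEJH-derived lines, while parental YEJG was highest at 2.62.

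**Figure D2:**
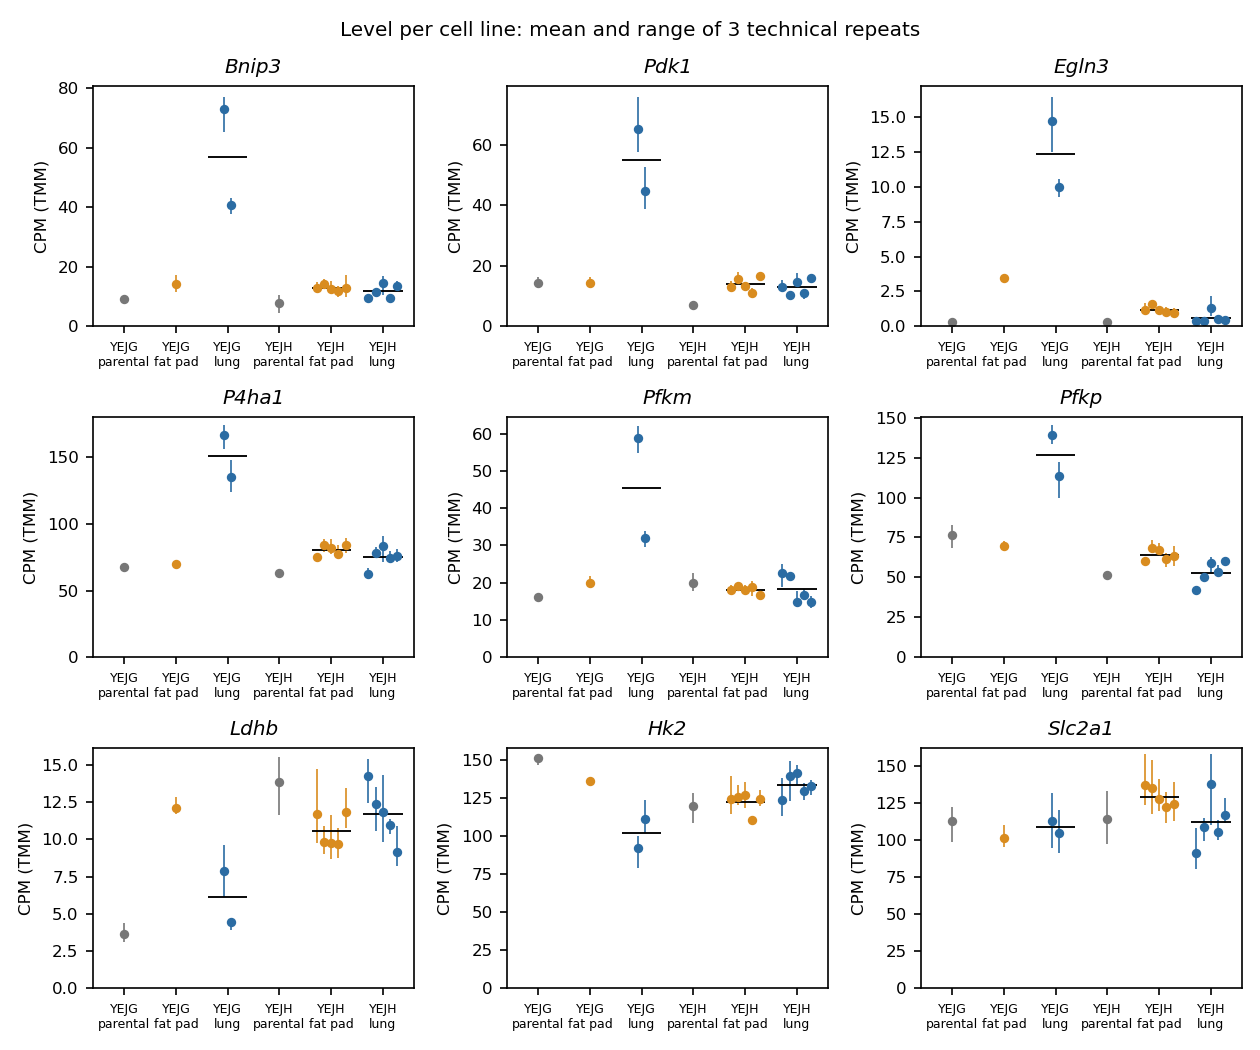
Level of 9 members in CPM (linear axis from 0) by family and site; each point is the mean of a cell line, its bar spans the lowest and highest of 3 technical repeats, and black lines are means of groups with more than 1 line. The YEJG lung lines lie above all others for *Bnip3*, *Pdk1*, *Egln3*, *P4ha1*, *Pfkm* and *Pfkp*, and within or below the range of the rest for *Ldhb*, *Hk2* and *Slc2a1*.

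When a single line other than YEJG-FP, or a repeat number, was dropped in turn (15 fits), 7 of the 14 product-term calls were kept every time. These were *Aldoa*, *Bnip3*, *Egln3*, *Gpi1*, *P4ha1*, *Pdk1* and *Pfkp*, with adjusted p up to 0.0409. Without YEJG-FP the term could not be estimated, so its dependence on that line was not tested. *Hk1* had an adjusted p of 0.0507 and *Hk2* of 0.0553 without YEJG-M1, *Hk2* had 0.0571 without repeat 3, and *Ldha* had 0.0542 and *Tpi1* 0.176 without repeat 1 of every line. *Ldhb* was lost in 6 of the 15 fits (those without YEJG-M2, YEJH-FP2, YEJH-FP3, YEJH-FP4, repeat 2 or repeat 3; adjusted p up to 0.115). *Pfkl* was lost in 9 (without YEJG-M1, YEJH-FP1 to YEJH-FP5, YEJH-M1, YEJH-M4 or repeat 2; up to 0.206) and *Pfkm* in 10 (without YEJG-M1, YEJH-FP1 to YEJH-FP5, YEJH-M3, YEJH-M4, repeat 1 or repeat 2; up to 0.157). The library of YEJG-M1 repeat 1 carries YEJH_M1 in its name. Its log levels correlated with those of YEJG-M1 repeat 3 at 0.990 and of YEJH-M1 repeat 2 at 0.941 across genes, and without it 16 members were called.

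Markers of the cell type moved with the same lines. The summed level of 8 mammary epithelium markers was 3722 and 3790 CPM in the YEJG lung lines and 6815 to 10772 CPM in the other 13, and 7 of the 8 reached 1 CPM in a line. The summed level of 5 fibroblast markers was 66.4 and 83.2 CPM in the YEJG lung lines and 1.95 to 9.63 CPM elsewhere. It came from *Pdgfra*, *Pdgfrb* and *Col1a1*, while *Lum* had 0 reads and *Dcn* at most 0.21 CPM. Of the 7 leukocyte markers, *Csf1r* and *Cd68* reached 1 CPM and *Ptprc* stayed at or below 0.25. The 5 endothelium markers summed to at most 0.82 CPM, the 4 of lung epithelium to at most 0.43 and those of adipocytes and erythroid cells to at most 0.03. The part of these marker differences in the members' values was not tested.

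Over all derived lines, with site in the model, 24 of the 35 members tested differed between the 3 YEJG-derived and the 10 YEJH-derived lines, 18 higher and 6 lower in YEJG, beside 42.3% of all genes (3144 higher and 3223 lower). The median log2 difference of YEJG minus YEJH was 0.32 over the members and 0.01 over all genes. Of 14 glycolytic enzymes, 11 were higher and 2 lower. This comparison shares its lines with the product term.

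*Egln3* differed most, at 3.59 ± 0.46 (adjusted p = 8.13e-05), followed among the higher members by *Bnip3* at 1.69 ± 0.31, *Pdk1* at 1.53 ± 0.30, *Pfkm* at 0.94 ± 0.22, *Pfkp* at 0.90 ± 0.18, *Pgam1*, the phosphoglycerate mutase, at 0.78 ± 0.15 and *P4ha1* at 0.63 ± 0.18. *Gapdh*, *Pgk1*, *Tpi1*, *Gpi1*, *Ldha*, *Aldoa*, *Pfkl*, *Eno1*, *Pkm*, *Ankrd37* and *Slc16a1* were higher by 0.12 to 0.54. Levels of *Pgam1*, *Gapdh* and *Pgk1* also differed between library name prefixes, whose mix varied between lines, as given below. The lower members were *Aldoc*, the brain-type aldolase (-1.33 ± 0.21, adjusted p = 0.000381), *Car9* (-1.29 ± 0.36, adjusted p = 0.0116), *Ddit4* (-0.81 ± 0.13, adjusted p = 0.000458), *Ndrg1*, a stress-responsive gene of the NDRG family (-0.71 ± 0.11, adjusted p = 0.000328), *Epas1* (-0.62 ± 0.23, adjusted p = 0.0481) and *Hk1* (-0.28 ± 0.07, adjusted p = 0.00716).

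*Ndrg1* measured 73.1 CPM in YEJG-M1, 85.5 in YEJG-M2 and 114 in YEJG-FP, and 123 to 166 (median 148) in the YEJH-derived lines. The 3 YEJG-derived lines were all below the 10 YEJH-derived lines. *Ddit4* measured 34.0, 40.0 and 31.8 CPM in the same YEJG lines and 43.6 to 79.5 in the YEJH-derived lines, again without overlap. *Aldoc* measured 1.51, 0.85 and 0.91 CPM and 2.15 to 3.65, and *Car9* measured 2.94, 3.87 and 1.92 CPM and 3.17 to 12.03. *Car9* therefore overlapped, through YEJG-M2 against YEJH-M2 and YEJH-M1.

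The same comparison was made within each site. In the fit over all derived lines, which share 1 estimate of the spread, 24 members differed between the 2 YEJG and 5 YEJH lung lines, 19 higher and 5 lower, beside 45.8% of all genes. Between YEJG-FP and the 5 YEJH fat-pad lines 7 members differed, 2 higher and 5 lower, beside 15.7% of all genes. *Bnip3* differed by 2.27 in lung lines and 0.16 in fat-pad lines (adjusted p = 1.98e-06 and 0.752), *Pdk1* by 2.10 and 0.02 (adjusted p = 2.02e-06 and 0.971), and *P4ha1* by 1.02 and -0.22 (adjusted p = 4.03e-06 and 0.305). *Egln3* was higher at both sites, by 4.35 and 1.56 (adjusted p = 1.25e-06 and 0.0316), and *Slc16a1* was higher in YEJG-FP, by 0.22. The members lower in YEJG-FP were *Car9* (-2.42), *Aldoc* (-1.74), *Epas1* (-1.36), *Ddit4* (-0.73) and *Hk1* (-0.54). Fits on the lines of a single site called 21 members in lung lines (36.4% of all genes) and 15 in fat-pad lines (34.0% of all genes), but in the latter YEJG-FP was the only YEJG line and the spread was that of the YEJH lines alone.

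**Figure D3:**
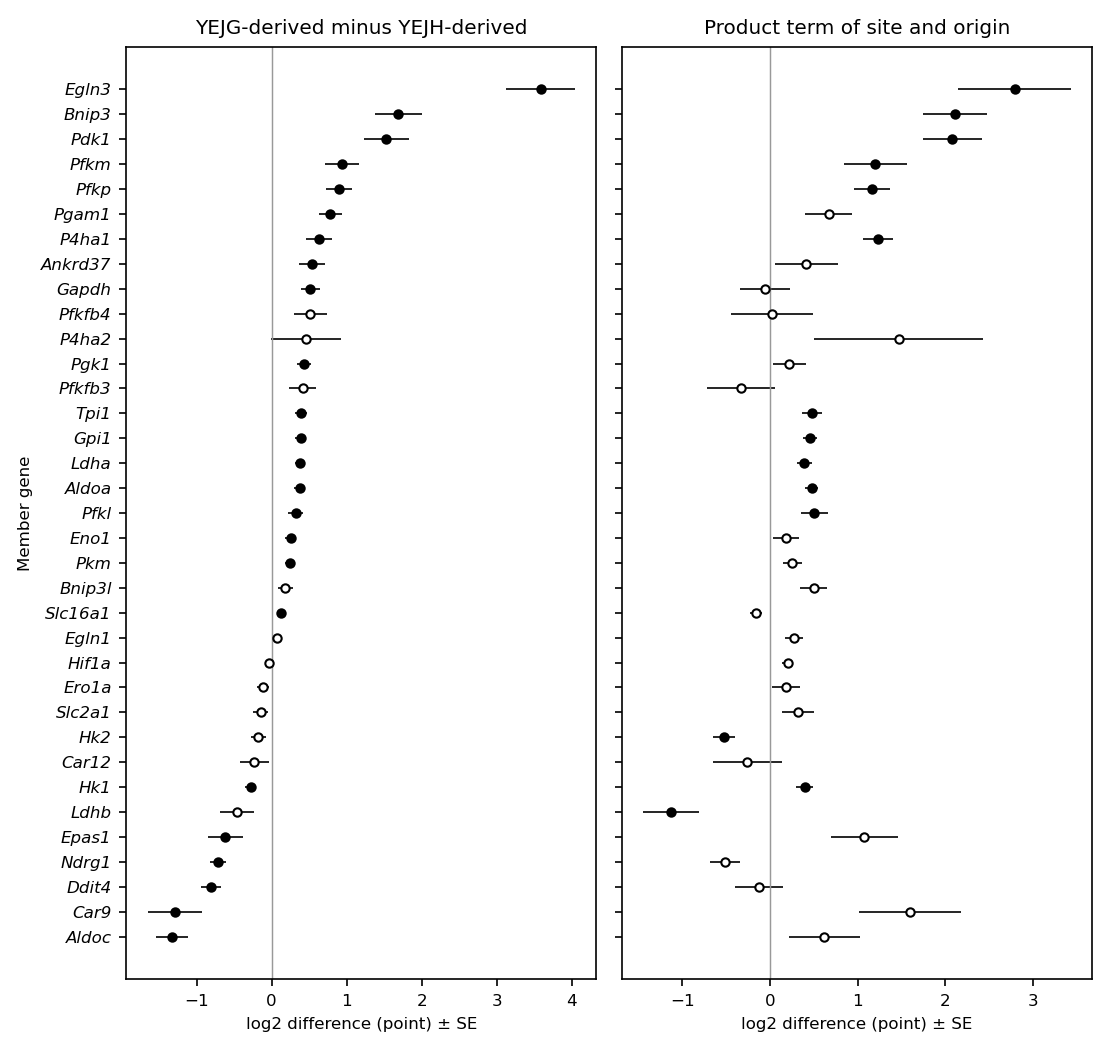
Log2 difference with its SE for the 35 members tested, ordered by the difference of YEJG-derived minus YEJH-derived lines (left), beside the product term of site and origin (right); filled points had an adjusted p under 0.05. *Egln3*, *Bnip3* and *Pdk1* lead both panels, while *Aldoc*, *Car9* and *Ddit4* are lowest on the left and are open points on the right.

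Of the 24 calls between families, 14 were kept in each of the 16 fits with a line or repeat number dropped. Without YEJG-M1, *Ankrd37* (adjusted p = 0.101), *Eno1* (0.0953), *P4ha1* (0.104), *Pfkl* (0.122) and *Pkm* (0.0583) were lost. Without YEJG-M2, *Ankrd37* (0.0761), *Pfkl* (0.0675) and *Epas1* (0.161) were lost, and without YEJG-FP *Car9* (0.0699), *Hk1* (0.0553), *Slc16a1* (0.289) and *Epas1* (0.327). Without repeat 1 of every line, *Gapdh* had an adjusted p of 0.185 and *Epas1* of 0.0512, and without repeat 2 *Ankrd37* had 0.409, *Eno1* 0.0559, *Pfkl* 0.0815, *Slc16a1* 0.173 and *Epas1* 0.283. *Slc16a1* was also lost without YEJH-FP2 or YEJH-FP4, and *Epas1* without any of YEJH-FP1 to YEJH-FP5, YEJH-M1, YEJH-M3 or YEJH-M4 (adjusted p up to 0.0758).

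Parental lines differed from the 13 lines derived from them in 2 of 36 members tested, a share not above the 7.77% of all genes called. Both were carbonic anhydrases of the cell surface, which hydrate carbon dioxide and are known for pH control. *Car12* measured 0.31 CPM in parental YEJG and 1.13 in parental YEJH, and in the derived lines it ran from 15.9 CPM in YEJG-M1 to 34.1 in YEJH-M3. Its log2 difference of derived minus parental was 4.92 ± 0.38 (edgeR, origin in the model; adjusted p = 1.03e-05). *Car9* measured 0.43 CPM in YEJG and 0.725 in YEJH, and 1.92 to 12.03 CPM in the derived lines (3.19 ± 0.56, adjusted p = 0.00518). The derived lines all lay above both parental lines for 5 members, *Car9*, *Car12*, *Egln3*, *Bnip3* and *Bnip3l*, beside 4.55% of the genes tested, and all below for 0, beside 3.53%.

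Of the 36 members tested, 2 were called, both higher, beside 7.77% of all genes called (580 higher and 692 lower). An unadjusted p under 0.05 was found for 12 members, beside 3866 of all 16361 genes tested. *Egln3* (2.97 ± 0.88, adjusted p = 0.0536) and *Pdk1* (1.23 ± 0.39, adjusted p = 0.0675) came next. *Bnip3l*, a mitophagy receptor related to *Bnip3*, measured 32.4 CPM in parental YEJG, 32.8 in parental YEJH and 34.5 to 56.2 in the derived lines (0.30 ± 0.13, adjusted p = 0.170). *Car12* kept its call in each of the 18 fits with a line or repeat number dropped, and *Car9* had an adjusted p of 0.0502 without parental YEJG. The count of called members ran from 1 without parental YEJG to 10 without YEJG-FP, with 6 without parental YEJH and 5 without repeat 3.

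**Figure D4:**
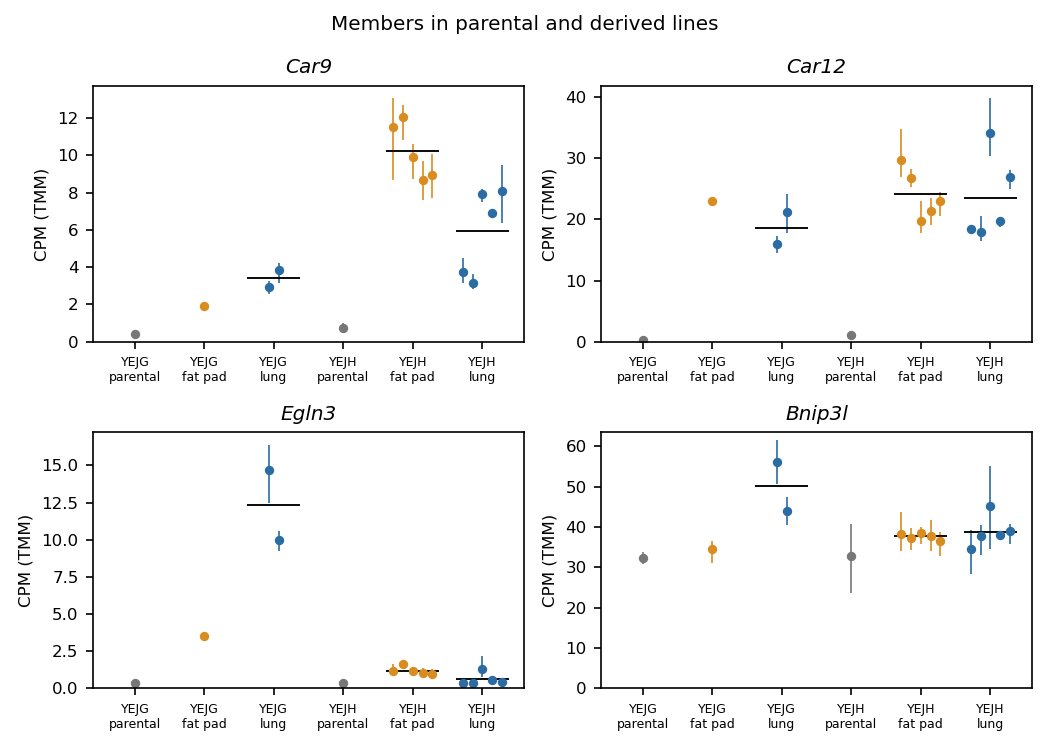
Level of *Car9*, *Car12*, *Egln3* and *Bnip3l* in CPM (linear axis from 0) by family and site; points are cell lines, bars span 3 technical repeats and black lines are means of groups with more than 1 line. The grey parental points lie below all derived lines for each gene, and nearly at 0 for *Car9* and *Car12*.

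Other genes of these pathways were read from lists beside the members. In the further hypoxia list, 7 of 26 genes tested had a higher and 2 a lower product term, beside 15.5% of all genes, with a median of 0.34. *Plod1*, a collagen lysyl hydroxylase, measured 84.5 CPM in YEJG-M1, 60.2 in YEJG-M2 and 20.04 in YEJG-FP (2.10 ± 0.24, adjusted p = 0.000291). *Fam162a* (0.71 ± 0.11), the glycogen synthase *Gys1* (0.70 ± 0.12) and the haem oxygenase *Hmox1* (0.59 ± 0.13) were called as well. Between families, 12 of the 26 were higher and 3 lower in YEJG, beside 42.3% of all genes, among them *Ak4*, an adenylate kinase (1.60 ± 0.20), and *Plod2*, another lysyl hydroxylase (1.69 ± 0.27). Against the parental lines, 4 of 28 were higher in the derived lines and 0 lower, beside 7.77% of all genes, led by *Vldlr*, a lipoprotein receptor (4.13 ± 0.74, adjusted p = 0.00575), at 0.93 and 0.07 CPM in YEJG and YEJH and 1.49 to 22.4 in the derived lines.

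In the further glycolysis list, 2 of 17 genes tested had a higher and 2 a lower product term, and between families 4 were higher and 7 lower in YEJG. Over all genes, 15.5% were called in the product term and 42.3% between families, beside which all counts of this paragraph stand. *Slc2a6*, a glucose transporter family member, measured 18.1 CPM in YEJG-M1 and 17.1 in YEJG-M2 and at most 1.22 in every other line (4.13 ± 0.64, adjusted p = 0.00157). *Gpd2*, the mitochondrial glycerol phosphate dehydrogenase, measured 77.1 and 90.0 CPM in the YEJG lung lines and 152 to 201 in the others (-0.90 ± 0.11, adjusted p = 0.000403). In the pentose phosphate pathway, *Tkt*, the transketolase, measured 290 and 288 CPM in the YEJG lung lines and 471 to 540 in all other lines (-0.73 ± 0.08, adjusted p = 0.000298), and 0 of 7 genes had a higher and 2 a lower product term, while between families 1 was higher and 3 were lower in YEJG. Of 17 citric acid cycle genes, 12 were higher in YEJG-derived lines and 0 lower, beside the 42.3% of all genes called in either direction, with differences of 0.30 to 0.34 for *Sdhd*, *Fh1*, *Idh3g* and *Suclg1*, while 1, *Mdh1*, had a called product term. Among the HIF partners and VHL complex genes, 5 of 8 were higher in YEJG, led by *Eloc* (0.25 ± 0.04) and *Vhl* (0.20 ± 0.04), and 0 had a called product term. Of the pyruvate dehydrogenase genes, 1 of 11 had a higher product term, *Pdk2*, and 1 a lower, *Pdp2*, and between families 5 were higher and 1 lower in YEJG. *Pdk2* was low throughout, at 1.15 CPM in YEJG-M1, 0.66 in YEJG-M2 and at most 0.4 in all other lines. None of the genes on these 6 lists was called between lung and fat-pad lines, over both families or in YEJH alone.

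Library names begin with 2 prefixes, here A (22 libraries) and B (23 libraries), and each line has libraries of both. The mix was unequal. Prefix A gave most libraries of YEJG, YEJG-FP, YEJG-M1, YEJH-FP1, YEJH-FP4, YEJH-M2 and YEJH-M5, and prefix B most libraries of the other lines. Line levels of members that differ between the prefixes carry this mix. Within lines, 10 of 36 members differed between the prefixes, 2 higher and 8 lower in B, beside 15.9% of 14339 genes. *Gapdh* was lower in B by -1.04 ± 0.03 (log2 ± SE), *Pgam1* by -0.96 ± 0.03 and *Pgk1* by -0.64 ± 0.03. The other members lower in B were *Bnip3*, *Eno1*, *Pkm*, *Tpi1* and *Ero1a*, by -0.29 to -0.10, and *Pdk1* and *Slc16a1* were higher by 0.19 and 0.07. Reads set aside for low alignment quality numbered 822828 to 1372504 in each library of prefix A and 0 in each of prefix B, and the part of this in the members' values was not tested.

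Several members share sequence with processed pseudogenes. *Gapdh* matched 336 pseudogenes of the table (80% identity over 50% of the pseudogene), *Ldha* 28, *Pkm* 13, *Aldoa* 11 and *Eno1* 10. Reads counted on the *Gapdh* copies were 78.1% of the sum of gene and copies in prefix A and 82.8% in B, so the level of *Gapdh* is uncertain. For *Eno1* this share was 13.5% and 4.99%, and for the other members it was at most 6.49%. With copies added to their gene, *Gapdh* differed by -0.68 and *Eno1* by -0.40 between prefixes. The number of members called in the product term (14) and between families (24) was unchanged with copies added. Within prefix A alone 14 product terms and 20 family differences of members were called, and within prefix B alone 16 and 22.

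**Figure D5:**
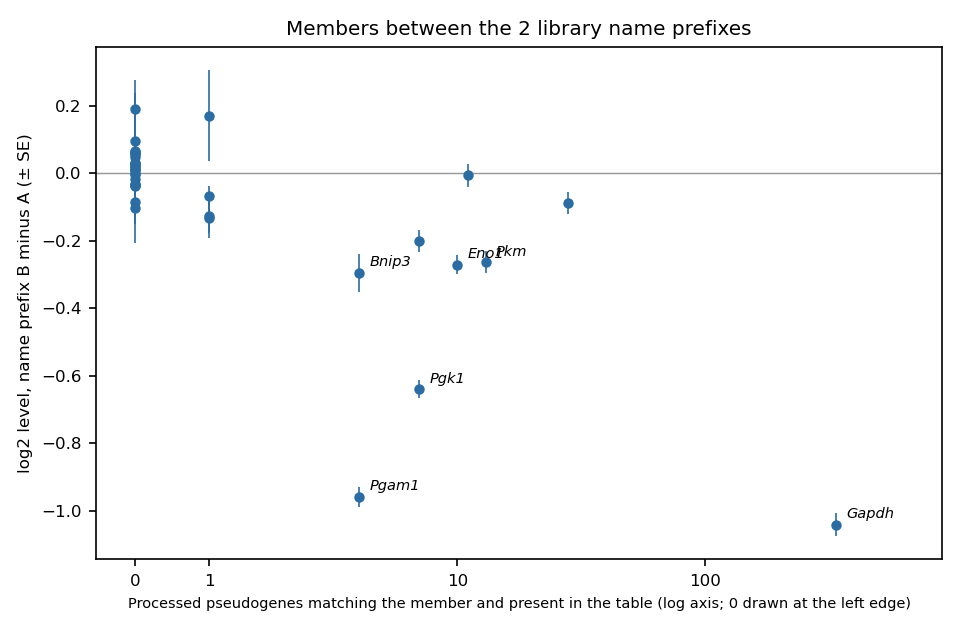
Log2 level in prefix B minus prefix A libraries (± SE) for the 36 members tested, against the number of processed pseudogenes that match each member (log axis, 0 drawn at the left edge). *Gapdh*, with 336 copies, and *Pgam1* and *Pgk1*, with 4 and 7, are lowest at -1.04, -0.96 and -0.64, and members without copies lie between -0.10 and 0.19.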

How the data were processed

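RNA had been taken from plated cells of 15 lines and sequenced from polyA libraries in 3 technical repeats per line. The table holds unnormalised read counts for each gene, as the authors deposited it. The submitters' processing notes name FastQC, HISAT2, SAMtools 1.2 and HTSeq. They also name a human build (GRCh38), although all gene identifiers are those of mouse, so the build of the alignment is not settled and no coordinate of the counts is given. Reads assigned to no gene (31.6% to 43.3% of a library) were left out of library sizes and tests.

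Counts were summed per line, scaled by TMM, filtered with filterByExpr by site and tested with edgeR 4.0.16 (R 4.3.3) by the quasi-likelihood method, with Benjamini-Hochberg adjustment over all genes tested and a threshold of 0.05. The SE of a log2 difference is its size divided by the square root of F. Lung and fat-pad lines were compared over both families, without origin in the model, and within YEJH. Families were compared with site in the model, and the product term was fitted on the derived lines. Derived lines were compared with parental lines with origin in the model. Prefixes of library names were compared on single libraries with the line in the model. The scripts were tested on simulated data.

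Members, and the lists of other pathway genes and cell type markers, were chosen with earlier results of these data known. By rule, all 38 members were described, called members were named with their values (in full for up to 12), the 4 members with the smallest p were named where none was called, and up to 4 called genes were named per further list. Names were paired with identifiers through the GRCm39 annotation, which matched 50764 of 54838 genes (92.6%). Pseudogene copies were found with blastn 2.17.0. Promoter sequences are those of RefSeq.

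Alternatives were DESeq2 1.42.0 and its size factors, no filter on low counts, single prefixes, lines or repeats left out, and libraries kept apart in limma 3.58.1. Summing pseudogene copies with their gene was chosen after seeing the data. The labels do not say whether YEJH lung and fat-pad lines of the same number came from the same mouse. Correlations of same-numbered lines ran from -0.18 to 0.03, which cannot decide this, and the lines were compared as unpaired. Repeat numbers are technical.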

Additional observations from a re-analysis of the deposited data

Results flagged for a closer look

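Among 70 groups examined, each the 5 YEJH lines of a site for a member, 3 held a line set apart from the others by Dixon's criterion, where chance gives about 1 in 20. *Hk2* measured 110.786 CPM in YEJH-FP4, with the nearest fat-pad line at 124.7. *Egln3* measured 1.605 CPM in YEJH-FP2, with the nearest at 1.155, and 1.315 CPM in YEJH-M3, with the nearest lung line at 0.559.

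The log2 difference of lung minus fat pad departed between the YEJG and YEJH families by the product term (edgeR, adjusted over all genes tested) in 14 members. It was 2.7929 for *Egln3*, 2.1112 for *Bnip3*, 2.083 for *Pdk1*, 1.2319 for *P4ha1*, 1.2046 for *Pfkm* and 1.1639 for *Pfkp*. It was 0.5049 for *Pfkl*, 0.4776 for *Tpi1*, 0.4742 for *Aldoa*, 0.4554 for *Gpi1*, 0.3973 for *Hk1* and 0.3915 for *Ldha*. It was lower for *Hk2* (-0.5224) and *Ldhb* (-1.1325). Each value rests on a single YEJG fat-pad line.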

How the results depend on the processing

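Of the values of named genes under the alternatives, 632 of 696 between families kept their direction and side of the threshold, 62 lost the call and 2 reversed. For the product term 314 of 350 were kept and 36 lost the call, and for derived against parental lines 55 of 56 were kept and 1 lost it. The cause of these changes was not tested. *P4ha1* (-0.2159) and *Pfkl* (-0.0069) reversed between families in fat-pad lines alone, where 15 members were called with YEJG-FP as the only YEJG line. In the fit over all derived lines 7 members were called for that contrast, and *P4ha1* was not (adjusted p = 0.305). The sign of *Pdk1* also changed for lung minus fat pad when only YEJH-derived lines were used (-0.1074).

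For lung against fat pad, genes called numbered 21 with DESeq2, 1 in prefix A, 77 with libraries kept apart, 68 with the repeat number as a replicate block, 74 with the prefix as a covariate, 3 with origin as a covariate, 7 in YEJH alone and 0 to 1 with a line or repeat left out. Within YEJH they numbered 156 with DESeq2, 319, 305 and 290 in the same 3 fits of kept-apart libraries (4 members each), 0 with the line number as a replicate block, and from 2 without YEJH-M2 to 110 without YEJH-M5. For derived against parental lines they numbered 2027 with DESeq2 (6 members), 685 in prefix B, 2481, 2546 and 2482 with libraries kept apart (9, 8 and 11 members), and from 141 without YEJG to 2281 without YEJH (1 to 10 members). Product-term calls of members numbered 23 with libraries kept apart and the prefix as a covariate, and 11 to 17 with a line or repeat left out. Between families 19 to 25 members were called with a line or repeat left out. The product term could not be estimated without YEJG-FP. Fits of kept-apart libraries use technical repeats, so their spread is partly that of repeats. At 0 to 4 reads per library, *Slc2a3* and *Slc16a3* could not be tested.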
